A study of Mus musculus with 6 samples.

Results

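H3K4me3 at the promoters of the genes for V(D)J recombination and for DNA end joining was described in a T cell progenitor line and a B cell progenitor line of the mouse. The genes are 10 of the 21951 protein-coding genes of the GENCODE annotation, chosen by name. The lymphoid recombinase genes are Rag1, Rag2 and Dntt (3 genes), and the general end-joining genes are Prkdc, Dclre1c, Lig4, Xrcc4, Xrcc5, Xrcc6 and Nhej1 (7 genes). A gene was called marked when an H3K4me3 peak lay within 2500 bp of any of its annotated transcription start sites (TSSs).

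H3K4me3 ChIP-seq was carried out with 2 ChIP libraries and 1 input library per cell line, 6 samples in all. Scid.adh.2C2 is a subclone of a lymphoma line from the thymus of a CB17 mouse with the Prkdc<scid> mutation, and resembles early pro-T cells. The second line is a B cell progenitor line transformed by the Abelson virus, called the B progenitor line here and shown under its line name in the plots. The chromatin was precipitated with the same H3K4me3 antibody, and the labels name no treatment. Both are single transformed lines that differ in lineage and in how they arose, and the labels give the Prkdc<scid> background for Scid.adh.2C2 alone, so these differences cannot be told apart here.

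For each line, the replicates were combined by the authors into 1 peak list, so the spread between replicates and the read depth are unknown, and no test between the lines was possible. The lists contained 15513 peaks in Scid.adh.2C2 and 19604 peaks in the B progenitor line. Of the T progenitor markers, 8 of 8 were marked in Scid.adh.2C2 and 3 of 8 in the B progenitor line (Cd3d, Lck and Tcf7). Of the B progenitor markers, 8 of 8 were marked in the B progenitor line and 1 of 8 in Scid.adh.2C2 (Vpreb1). Of the markers of myeloid, erythroid and natural killer cells, 1 of 8 was marked in each line (Klf1).

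V(D)J recombination assembles antigen receptor genes in developing lymphocytes. RAG1 and RAG2 form the recombinase that cuts the DNA at recombination signal sequences, and the plant homeodomain finger of RAG2 binds H3K4me3 itself. Terminal deoxynucleotidyl transferase, encoded by Dntt, adds untemplated nucleotides to the coding ends. The breaks are closed by classical non-homologous end joining, which all cells use for double-strand breaks. In this pathway Ku70 (Xrcc6) and Ku80 (Xrcc5) bind the ends, the kinase DNA-PKcs (Prkdc) activates the nuclease Artemis (Dclre1c) to open hairpin ends, and XRCC4, DNA ligase IV (Lig4) and XLF (Nhej1) join them. The scid mutation truncates DNA-PKcs near its carboxyl terminus, far from the promoter. H3K4me3 is a mark of active promoters, and it is found most regularly at promoters rich in CpG dinucleotides.

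The promoter sequences of the members differed in their CpG content, and 7 of them are printed to show this contrast beside the peaks. They run 5′ to 3′ from 250 bases before to 50 bases after a gene start of RefSeq on GRCm38.p6, with CpG dinucleotides in capitals. The windows are chr2:101649483-101649782 on the minus strand for Rag1, chr2:101624462-101624761 on the plus strand for Rag2, chr19:41029025-41029324 on the plus strand for Dntt, chr2:3423881-3424180 on the plus strand for Dclre1c, chr8:9977631-9977930 on the minus strand for Lig4, chr13:90089559-90089858 on the minus strand for Xrcc4 and chr15:82016119-82016418 on the plus strand for Xrcc6.
Rag1: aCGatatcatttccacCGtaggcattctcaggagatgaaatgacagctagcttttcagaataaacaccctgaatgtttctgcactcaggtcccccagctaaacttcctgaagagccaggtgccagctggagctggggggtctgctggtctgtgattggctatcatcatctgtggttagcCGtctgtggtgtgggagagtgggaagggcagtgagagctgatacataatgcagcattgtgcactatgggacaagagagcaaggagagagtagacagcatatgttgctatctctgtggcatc
Rag2: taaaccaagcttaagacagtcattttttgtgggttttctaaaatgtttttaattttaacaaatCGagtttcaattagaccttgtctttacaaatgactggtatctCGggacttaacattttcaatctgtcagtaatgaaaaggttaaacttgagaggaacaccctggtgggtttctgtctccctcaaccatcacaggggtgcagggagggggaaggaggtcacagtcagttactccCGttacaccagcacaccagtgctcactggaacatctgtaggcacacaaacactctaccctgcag
Dntt: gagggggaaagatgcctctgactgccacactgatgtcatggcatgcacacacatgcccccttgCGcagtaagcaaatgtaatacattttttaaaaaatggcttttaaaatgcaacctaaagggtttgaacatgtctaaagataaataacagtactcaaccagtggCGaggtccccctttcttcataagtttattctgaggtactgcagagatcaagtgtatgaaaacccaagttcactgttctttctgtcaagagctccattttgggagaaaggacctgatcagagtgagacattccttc
Dclre1c: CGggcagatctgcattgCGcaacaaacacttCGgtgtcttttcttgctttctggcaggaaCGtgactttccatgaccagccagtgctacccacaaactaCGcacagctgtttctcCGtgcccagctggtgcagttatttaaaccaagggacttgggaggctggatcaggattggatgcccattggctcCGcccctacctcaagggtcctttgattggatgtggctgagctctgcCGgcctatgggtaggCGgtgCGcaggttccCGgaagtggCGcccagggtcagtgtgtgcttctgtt
Lig4: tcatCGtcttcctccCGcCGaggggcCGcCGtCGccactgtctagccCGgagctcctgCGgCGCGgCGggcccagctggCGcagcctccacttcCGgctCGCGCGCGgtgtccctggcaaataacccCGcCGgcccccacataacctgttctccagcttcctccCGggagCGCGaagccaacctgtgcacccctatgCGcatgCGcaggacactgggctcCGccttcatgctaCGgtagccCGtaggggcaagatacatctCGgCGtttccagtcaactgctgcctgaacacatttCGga
Xrcc4: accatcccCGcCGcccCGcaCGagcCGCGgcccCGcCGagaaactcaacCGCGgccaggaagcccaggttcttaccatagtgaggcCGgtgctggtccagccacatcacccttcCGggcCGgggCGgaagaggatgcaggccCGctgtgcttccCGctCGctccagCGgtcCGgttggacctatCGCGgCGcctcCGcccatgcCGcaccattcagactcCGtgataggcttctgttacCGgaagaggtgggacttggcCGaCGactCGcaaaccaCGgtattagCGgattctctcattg
Xrcc6: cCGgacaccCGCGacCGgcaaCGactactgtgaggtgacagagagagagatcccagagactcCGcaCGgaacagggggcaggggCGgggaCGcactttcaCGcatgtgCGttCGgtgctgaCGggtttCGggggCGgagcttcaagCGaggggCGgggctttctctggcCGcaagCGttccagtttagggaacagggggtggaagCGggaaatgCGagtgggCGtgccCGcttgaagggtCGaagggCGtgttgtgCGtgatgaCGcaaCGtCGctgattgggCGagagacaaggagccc

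The recombinase promoters held 3 CpGs in Rag1, 3 in Rag2 and 2 in Dntt, whose window ends before its TSSs at 41029382 and 41029385. The ratio of observed to expected CpGs was 0.165, 0.216 and 0.149 in that order, against a median of 0.384 over 32841 RefSeq promoters of the same length. The Dclre1c promoter held 12 CpGs (ratio 0.505). Those of Lig4, Xrcc4 and Xrcc6 held 30, 31 and 30 CpGs, with ratios of 0.938, 0.970 and 1.04. The table holds a second Lig4 promoter at its downstream TSS, chr8:9976262-9976561, which is not printed and held 29 CpGs (ratio 0.857). Of the members not printed, Xrcc5 had a ratio of 0.527 and Nhej1 of 0.523. The 3 recombinase promoters were therefore the 3 lowest of the 9 members with a promoter in the table.

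All 7 end-joining genes were marked in both lines, and none of the 3 recombinase genes was. Rag1 and Rag2 had a peak in Scid.adh.2C2 alone, and Dntt had one in the B progenitor line alone. Among all protein-coding genes, 45.5% were marked in Scid.adh.2C2, 48.2% in the B progenitor line and 42.2% in both. The share marked in Scid.adh.2C2 only was 3.28%, and the share marked in the B progenitor line only was 5.96%. In all, 9 of 10 members were marked in Scid.adh.2C2 and 8 of 10 in the B progenitor line. Where a gene is called unmarked, its window held no peak that met the q-value and replicate criteria of the authors, which is not a measurement of absent H3K4me3.

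**Figure D1:**
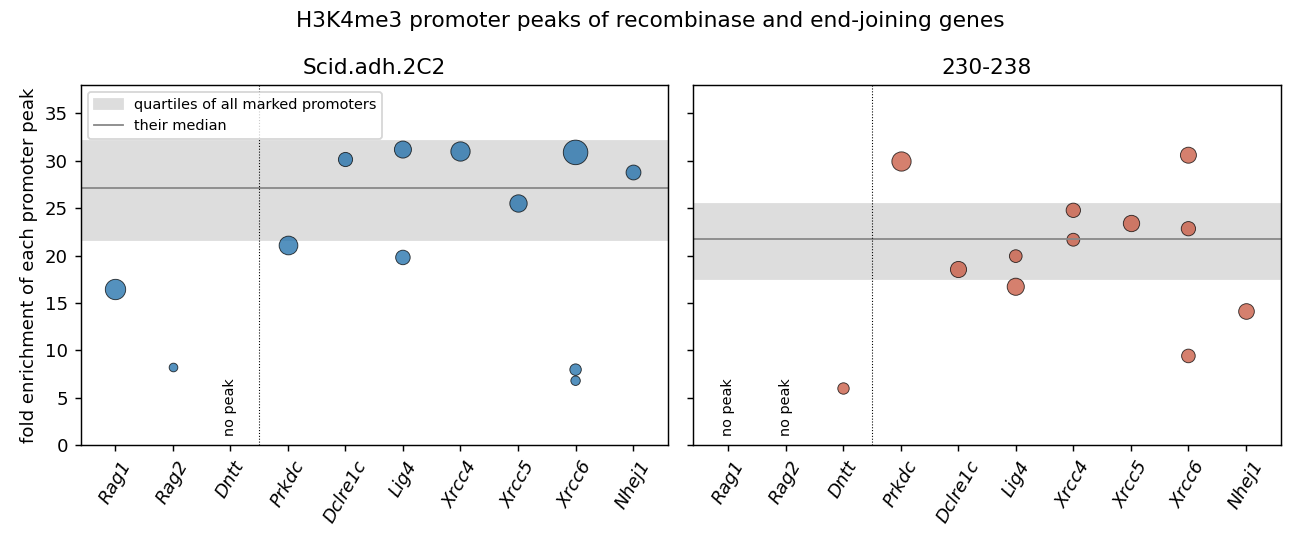
Fold enrichment of every promoter peak of the 10 genes in each line's combined peak list (left, Scid.adh.2C2; right, the B progenitor line). Each circle is 1 peak with an area that grows with its width, the grey band and line are the quartiles and median of the highest peak of all marked protein-coding promoters, and the dotted line separates recombinase from end-joining genes; the recombinase peaks sit below the band in both panels.

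Fold enrichment, the height of a peak over the background modelled by the peak caller, was compared within a list. The median of the highest peak per marked promoter was 27.1-fold in Scid.adh.2C2 (quartiles 21.6 and 32.1) and 21.7-fold in the B progenitor line (quartiles 17.6 and 25.5). The end-joining genes had a median of 30.1-fold in Scid.adh.2C2 (21.1 to 31.2) and of 23.4-fold in the B progenitor line (14.1 to 30.6). The recombinase genes were at 16.5-fold (Rag1) and 8.20-fold (Rag2) in Scid.adh.2C2 and at 6.02-fold (Dntt) in the B progenitor line. Each recombinase peak was thus lower than the highest peak of every end-joining gene in the same list.

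Rag1 (ENSMUSG00000061311, chr2:101638282-101649501, minus strand) has 1 annotated TSS. Its peak in Scid.adh.2C2 reached from 101646507 to 101650062 (3556 bp), with a −log10 q of 78.8 and the highest IDR score of 1000. By width it ranked 726 of 15513 peaks, at the 95.3rd percentile, whereas by fold it ranked 9303, at the 40.0th percentile. Rag1 thus carried a broad peak of less than median height. Relative to the TSS the peak ran from −561 bp to 2994 bp in the direction of transcription, and its summit lay at 673 bp, in intron 1. In the B progenitor line the nearest peak was 28361 bp from the TSS.

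Rag2 (ENSMUSG00000032864, chr2:101624718-101632529, plus strand) lies next to Rag1 and is transcribed toward it. Its peak in Scid.adh.2C2 was narrow, with 645 bp from 101624622 to 101625266, and covered both annotated TSSs. The fold of 8.20 was at the 15.8th percentile of the list and at the 1.47th percentile of marked promoters, with a −log10 q of 21.6 and an IDR score of 967. The summit lay in exon 1, 61 bp downstream of the nearest TSS. Rag2 was unmarked when peaks of at least 10-fold or of the highest IDR score were required. The peak of Rag2 was both lower and narrower than that of Rag1, and in the B progenitor line the nearest peak was 53116 bp away.

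Around the Rag genes, within 100000 bp of the Rag1 TSS, Scid.adh.2C2 had 5 peaks and the B progenitor line had 2. The peak at the promoter of Traf6, a ubiquitin ligase gene next to Rag1, was the one present in both lines, at 22.0-fold in Scid.adh.2C2 and 18.0-fold in the B progenitor line. The other 4 peaks of Scid.adh.2C2 overlapped no peak of the B progenitor line. They were the 2 promoter peaks, a peak of 12.8-fold and 434 bp with its summit at −3308 bp from the Rag1 TSS, and a peak of 10.7-fold and 694 bp with its summit at −23886 bp from the Rag2 TSS. Both peaks outside promoters were higher than the Rag2 promoter peak. The second peak of the B progenitor line in this interval, 11.7-fold, had its summit at −83313 bp from the Rag1 TSS. Negative distances are upstream in the direction of transcription. The overlapping gene B230118H07Rik, on the same strand, has a TSS next to that of Rag1 and shares its peak, which the peak list cannot divide between them. The pseudogene Gm20693 was unmarked in both lines.

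Dntt (ENSMUSG00000025014, chr19:41029275-41059525, plus strand) has 3 annotated TSSs, none of which was covered by a peak. In the B progenitor line, a peak of 1121 bp from 41030718 to 41031838 began 1333 bp downstream of the nearest TSS and had its summit in intron 1. Its fold was 6.02 with a −log10 q of 26.3. This placed it at rank 18936 of 19604 peaks and at the 0.166th percentile of marked promoters. Dntt was therefore counted as marked through a weak peak inside the gene. It was unmarked in both lines with a window of 1000 bp, with peaks of at least 10-fold, with equal numbers of peaks in the lists, or when a peak had to cover a TSS. In Scid.adh.2C2 the nearest peak lay 12521 bp upstream.

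Upstream of Dntt, both lines had an overlapping distal peak that lay in no annotated promoter window. It was 11.9-fold enriched in Scid.adh.2C2 (625 bp) and 22.1-fold in the B progenitor line (817 bp), with summits at −12951 bp and −12945 bp from the first TSS. In the B progenitor line this peak was higher than the one inside Dntt. Within 100000 bp, the B progenitor line had 6 peaks, of which 5 overlapped none in Scid.adh.2C2. These included the 6915 bp peak of Blnk, a B cell receptor adaptor gene and one of the B progenitor markers, at 20.9-fold, and 3 distal peaks of 6.45-fold to 8.02-fold.

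**Figure D2:**
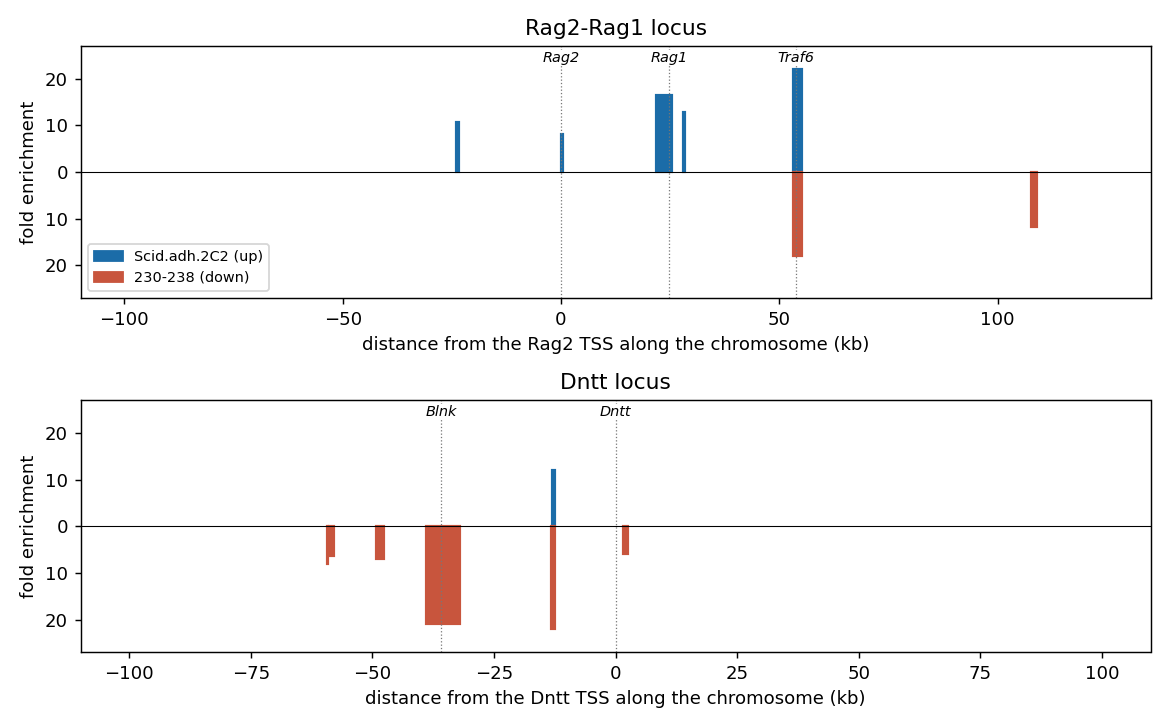
Fold enrichment of all peaks within 100000 bp of Rag1 or Rag2 (top) and of Dntt (bottom), plotted by distance from the Rag2 or Dntt TSS in kb, with Scid.adh.2C2 upward and the B progenitor line downward. Bars span the peaks, with outlines that widen the narrowest; at the Rag genes the Traf6 peak is the one seen in both lines, and upstream of Dntt a distal peak is seen in both.

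Of the end-joining genes, Xrcc6 (ENSMUSG00000022471, chr15:81987835-82040085, plus strand), which encodes Ku70, had the widest single peak in Scid.adh.2C2. There its main peak was 5174 bp wide, rank 119 of 15513 and the 99.2nd percentile, and 30.9-fold enriched. In the B progenitor line the same region held 2 peaks of 30.6-fold and 22.8-fold, separated by 81 bp and spanning 4035 bp. The 30.6-fold peak ranked 430 of 19604 and had an IDR score of 775. Weaker peaks of 7.96-fold and 6.79-fold in Scid.adh.2C2 and of 9.41-fold in the B progenitor line lay farther downstream, and the most upstream of the 12 TSSs was unmarked in both lines, so Xrcc6 was unmarked when that TSS stood for the gene. It was also unmarked with the outermost start of its RefSeq gene record, which lies far upstream of the RefSeq start whose promoter is printed. Xrcc5 (ENSMUSG00000026187, chr1:72307421-72394952, plus strand), which encodes Ku80, had a single peak in each line. It was 25.5-fold enriched and 2587 bp wide in Scid.adh.2C2, and 23.4-fold and 2294 bp in the B progenitor line. In Scid.adh.2C2 the Ku70 gene thus had the wider peak of the Ku pair. In the B progenitor line its widest single peak was 2201 bp, narrower than the Xrcc5 peak. The span of its 2 neighbouring peaks in that line was wider than the Xrcc5 peak.

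Prkdc (ENSMUSG00000022672, chr16:15637866-15842235, plus strand), the gene mutated in scid mice, was marked in both lines. Its peak was 3007 bp wide and 21.1-fold enriched in Scid.adh.2C2, and 3186 bp wide and 30.0-fold enriched in the B progenitor line. These values were at the 22.6th and 94.0th percentile of the marked promoters of their lists. The summits lay at −134 bp and −136 bp from the Prkdc TSS, between Prkdc and the divergent gene Mcm4, a subunit of the replicative helicase. The summits of the lines thus lay 2 bp apart, while the place of the peak in its list by fold differed. Its places were closer by other measures. Among all peaks it was at the 78.3rd percentile in Scid.adh.2C2 and the 90.6th in the B progenitor line by −log10 q. By width it was at the 90.7th and 88.3rd percentile.

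Dclre1c (ENSMUSG00000026648, chr2:3424131-3464130, plus strand), the Artemis gene, was 30.1-fold enriched over 1728 bp in Scid.adh.2C2 and 18.6-fold over 2239 bp in the B progenitor line. Its peak covered 4 of the 6 TSSs in each line. Artemis acts with DNA-PKcs. By fold, its gene stood higher among marked promoters in Scid.adh.2C2 (65.4th percentile) than in the B progenitor line (30.1st percentile), opposite to Prkdc.

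Among the ligation genes, Lig4 (ENSMUSG00000049717, chr8:9969049-9977686, minus strand) had 2 peaks in each line, 1 at each of its 2 TSSs, with a gap of 257 bp in Scid.adh.2C2 and 244 bp in the B progenitor line. In Scid.adh.2C2 the peak at the upstream TSS was the higher (31.2-fold against 19.8-fold), and in the B progenitor line the peak at the downstream TSS was (19.9-fold against 16.7-fold). The order of the 2 Lig4 peaks by fold thus differed between the lists. By −log10 q the downstream peak was the higher in both lists. The values were 135.7 against 133.4 in Scid.adh.2C2 and 126.5 against 81.1 in the B progenitor line. Xrcc4 (ENSMUSG00000021615, chr13:89774027-90089608, minus strand) had 1 peak of 31.0-fold and 3197 bp in Scid.adh.2C2. In the B progenitor line it had 2 peaks of 24.8-fold and 21.7-fold that were 73 bp apart and spanned 3262 bp. The 24.8-fold peak covered 0 of the 4 Xrcc4 TSSs, and the 21.7-fold peak covered 3. Xrcc4 thus covered nearly the same length in both lines, divided in 1 of them.

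Nhej1 (ENSMUSG00000026162, chr1:74967139-75125200, minus strand) was 28.8-fold enriched over 1893 bp in Scid.adh.2C2 and 14.1-fold over 2107 bp in the B progenitor line, the lowest end-joining value in that list. In GENCODE, the marked TSS at 75125200 belongs to a short noncoding transcript of the gene, and the TSS of its protein-coding transcript at 75046639 was unmarked in both lines. The RefSeq promoter window of Nhej1, chr1:75125177-75125476, includes the marked TSS. With the outermost start of its RefSeq gene record, Nhej1 was marked in both lines.

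**Figure D3:**
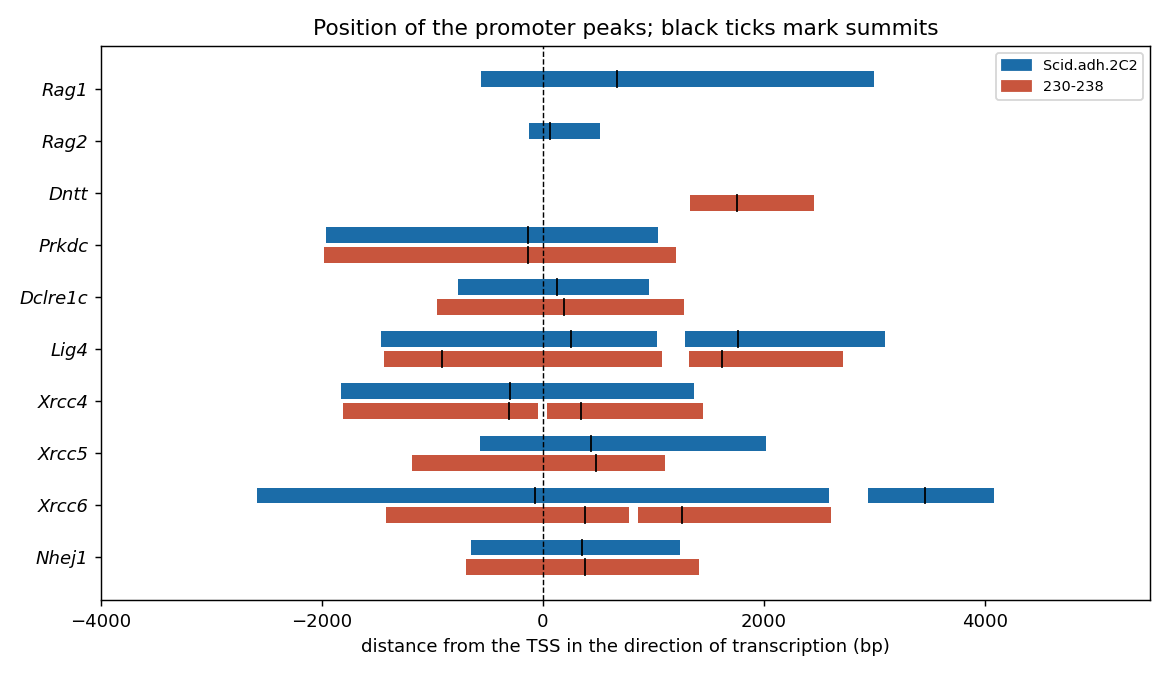
Promoter peaks of the 10 genes by distance in bp from the annotated TSS nearest to the highest peak (Scid.adh.2C2, and the B progenitor line for Dntt), in the direction of transcription, with black ticks at the summits. Blue bars are Scid.adh.2C2 and red bars the B progenitor line; the end-joining peaks cover similar ground in both lines, and the farthest downstream Xrcc6 peak of each line lies outside the plot.

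A total of 4 end-joining genes share their promoter with a divergent neighbour whose TSS lies within 1000 bp. The neighbour's TSS lay at −21 bp for Lig4 (Abhd13), −41 bp for Xrcc4 (Tmem167), −144 bp for Xrcc6 (Desi1) and −466 bp for Prkdc (Mcm4). The highest peak of each of these genes overlaps the promoter windows of both genes in both lines, so the windows cannot assign it to 1 of the 2 genes. The highest Xrcc4 peak of the B progenitor line covered no Xrcc4 TSS and ended 41 bp upstream of the nearest one. The farthest downstream Xrcc6 peak of each line lies in the windows of Xrcc6 alone. The Dclre1c peak of each line also lies in the promoter window of another gene, though not one with a divergent TSS within 1000 bp. None of the 3 recombinase genes had a divergent neighbour within this distance.

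To place the differences between the lines, the log2 ratio of the highest fold (Scid.adh.2C2 over the B progenitor line) was set among the 9261 protein-coding genes marked in both. The median of these was 0.32, with quartiles of 0.01 and 0.59 and the 10th and 90th percentiles at −0.33 and 0.88. Nhej1 had the highest ratio of the members (1.03, 94.0th percentile), followed by Dclre1c (0.70) and Lig4 (0.65). Xrcc4 (0.33), Xrcc5 (0.12) and Xrcc6 (0.01) were nearer to the median. Prkdc had the lowest ratio (−0.51, 5.59th percentile). By the ratio of the highest folds, the end-joining genes apart from Nhej1 and Prkdc lay between the 10th and 90th percentiles of all shared promoters. With 1 list per line, none of these differences could be tested.

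**Figure D4:**
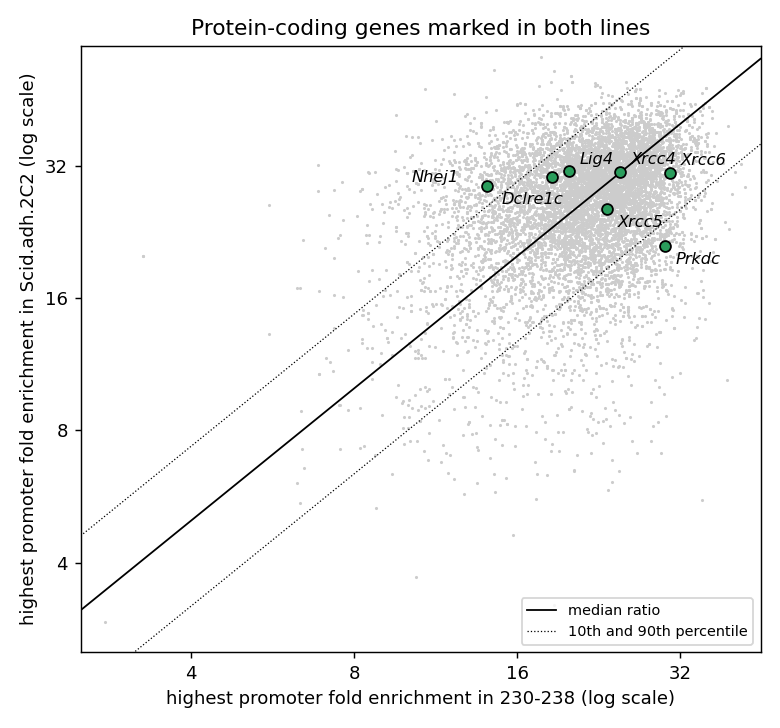
Highest promoter fold in the B progenitor line (x axis) and Scid.adh.2C2 (y axis), both on log scales, for the 9261 protein-coding genes marked in both lines (grey), with the 7 end-joining genes in green. The solid line is the median ratio and the dotted lines the 10th and 90th percentiles; Prkdc lies below the lower dotted line and Nhej1 above the upper one.

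The length of the promoter window under peaks gave another order. In Scid.adh.2C2, 3062 bp of the Rag1 window were covered (77.0th percentile of marked promoters), against 645 bp for Rag2 (2.29th percentile). In the B progenitor line, 1121 bp were covered for Dntt (5.38th percentile). By this measure Rag1 stood among the end-joining genes, which ranged from 1728 bp to 6408 bp in Scid.adh.2C2 and from 2107 bp to 5549 bp in the B progenitor line. The measure depends on the annotation, since the windows of all TSSs of a gene were joined. They held 5001 bp for Rag1 and 22776 bp for Xrcc6. In Scid.adh.2C2 the covered share was 61.2% for Rag1, and it ranged from 11.5% (Dclre1c) to 67.4% (Lig4) for the end-joining genes.

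The share of marked promoters was lowest in the class with the fewest CpGs in both lines. Of 4088 protein-coding genes with a promoter ratio under 0.25, the class of the 3 recombinase genes, 8.59% were marked in Scid.adh.2C2, 11.1% in the B progenitor line and 6.36% in 1 of the lines only. Of 6258 genes at 0.75 or over, the class of Lig4, Xrcc4 and Xrcc6, 77.5% were marked in Scid.adh.2C2 against 79.7% in the B progenitor line. Of the 3504 genes from 0.5 to 0.75, the class of Dclre1c, Xrcc5 and Nhej1, 58.5% and 61.6% were marked. The class from 0.25 to 0.5, with 2667 genes and no member, stood at 24.3% and 27.9%. The share marked in 1 of the lines only was 11.3% from 0.25 to 0.5 and 11.6% from 0.5 to 0.75. It was 9.14% at 0.75 or over, so the 6.36% of the recombinase class was the lowest. The recombinase genes thus belong to the class with the lowest share of marked promoters. At the peaks themselves, over 501 bp around the summit, the ratio was 0.223 for Rag1 and 0.209 for Rag2, against a median of 0.541 over all peaks of Scid.adh.2C2. It was 0.349 for Dntt, against 0.443 over all peaks of the B progenitor line. Summits of end-joining genes also lay below these medians, with Dclre1c at 0.496 and the Xrcc6 peaks at 0.512, 0.246 and 0.358 in Scid.adh.2C2. Those of the B progenitor line were a Lig4 peak at 0.434, the second Xrcc4 peak at 0.346 and the lower Xrcc6 peaks at 0.435 and 0.351. A ratio below the median was thus not particular to the recombinase genes. The ratios of Rag1 and Rag2 were nevertheless lower than that of every end-joining summit in Scid.adh.2C2. In the B progenitor line the highest peak of each end-joining gene lay above the median, and the second Xrcc4 peak lay below Dntt.

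**Figure D5:**
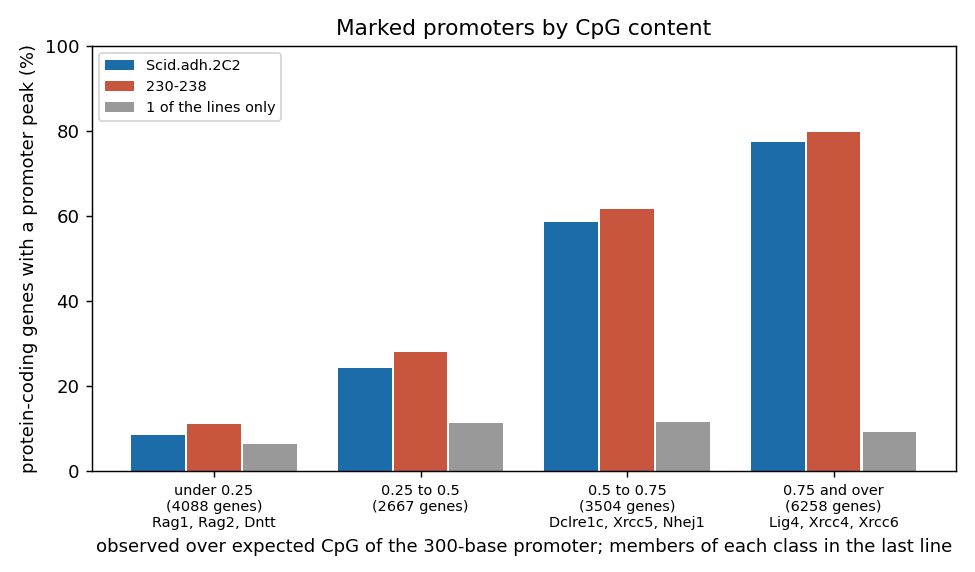
Share in percent of protein-coding genes with an H3K4me3 promoter peak, by the observed over expected CpG ratio of the 300-base promoter, in Scid.adh.2C2 (blue), in the B progenitor line (red) and in 1 of the lines only (grey). The members are named under their class; the share is 8.59% and 11.1% in the class of Rag1, Rag2 and Dntt and 77.5% and 79.7% in that of Lig4, Xrcc4 and Xrcc6.

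Letters of known binding motifs were searched on both strands of the 300-base promoters, in 9 members and in 32841 promoters. TGTGGT, read by RUNX factors, occurred in 1 member, Rag1, with 2 matches, and in 16.8% of all promoters. CAGGTG, an E-box of the E protein type, also occurred in 1 member, Rag1, and in 20.2% of all. GGGCGG, the GC box, occurred in 5 members (Dclre1c, Lig4, Xrcc4, Xrcc6 and Nhej1) and in 35.7% of all, in Lig4 through the downstream promoter alone. No recombinase promoter held the GC box letters. CCGGAAGT, of the ETS family, occurred in Dclre1c and Lig4 (3.89% of all), and CACGTG, of the Myc type, in Xrcc5 (7.15% of all). CCAAT occurred in 4 members, including Rag1, and in 37.4% of all, and GGGAA, the Ikaros core, in 8 members and in 62.7%. TATAAA (13.6% of all), CTCATTCT (1.34%) and GTAAACA (3.65%) occurred in 0 of the 9 members. The Dntt window ends before its TSSs at 41029382 and 41029385, so the letters around these were not searched. These matches describe the letters of the windows and are not measured binding.

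The other listed genes, of the DNA break response and of RAG cofactors and partners, were all marked in both lines where they could be matched. Of 48 genes found in the annotation, 48 were marked in both (42.2% of all protein-coding genes were), with a median highest fold of 27.5 in Scid.adh.2C2 against 23.0 in the B progenitor line. They comprised 14 genes of accessory end joining, 8 of break sensing, 7 of alternative end joining, 12 of homologous recombination and 7 of RAG cofactors and partners such as Hmgb1 and Hmgb2, which help RAG to bend DNA. The medians of the lists ranged from 23.6-fold to 31.4-fold in Scid.adh.2C2 and from 16.7-fold to 24.7-fold in the B progenitor line. Of the 10 members and these 48 genes, only the 3 recombinase genes were marked in 1 line.

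By the pair of fold percentiles in the 2 lists, the protein-coding genes most like Rag1, apart from B230118H07Rik on the same peak, were Ptgfrn and Bin2, within 0.177 percentile points. Those most like Rag2 were Btg4, Lrrc66 and Cadm4, within 0.390 points, and those most like Dntt were Ccdc7b, Gm10999 and Muc13, each 0.135 points away. This likeness rests on 2 lists and says only that these genes had a peak of similar height in the same line and none in the other.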

How the data were processed

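H3K4me3 ChIP-seq of 2 lines was analysed from the peak list of each. Per the labels and the methods of the study, the authors trimmed the reads (Trim Galore 0.6.7), mapped them to mm10 (GRCm38; Bowtie2 2.4.4), called narrow peaks against the matching input (MACS2 2.2.7.1, q threshold 0.05) and kept peaks passing an IDR threshold of 0.05 between replicates. The deposited lists pool the replicates. They give an IDR score, a fold enrichment ratio over background, and the −log10 p-value and −log10 q-value of each peak, all as the authors' values and used unchanged. A locus can be unmarked because its replicate ranks disagreed. Depth is unknown.

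TSSs came from GENCODE M21 on GRCm38, and promoter sequences from the RefSeq table on GRCm38.p6, which matched 9 members; all 10 member windows were identical in the genome. Peaks overlapping a window of 2500 bp either side of a TSS by at least 1 bp were assigned to the gene, and a peak shared by several genes was counted for each. The genes named are the members, genes with a TSS within 1000 bp head to head, genes with a TSS within 100000 bp of Rag1 or Rag2, listed pathway genes marked in 1 line only (there were none), and the 3 genes nearest in fold percentiles to each recombinase gene; Blnk, the markers and the cofactors are named as list members or background. The members and lists were chosen with earlier results of these data known. Of 49 pathway symbols, 48 were matched. No test between the lines was made. The functions were tested on simulated data. Python 3.11.15, numpy 2.4.6, pandas 2.3.3 and matplotlib 3.10.9 were used.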

Additional observations from a re-analysis of the deposited data

How the results depend on the processing

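Of 60 counts of marked members under 10 alternative settings, 54 were within 1.5 times the reported count and 36 were equal to it. The count of marked recombinase genes in the B progenitor line was 0 in place of 1 with a window of 1000 bp, with peaks of at least 10-fold, with equal numbers of peaks in both lists and when a peak had to cover a TSS, since the weak peak inside Dntt was lost. In Scid.adh.2C2 it was 1 in place of 2 with peaks of at least 10-fold and with peaks of the highest IDR score, where Rag1 was left and Rag2 was lost. The end-joining count was 6 in place of 7 in both lines with the most upstream TSS or the outermost start of the RefSeq gene record (without Xrcc6) and with protein-coding transcripts (without Nhej1). All 96 highest folds and widest peaks recomputed with another window or the most upstream TSS were equal to those reported. Percentiles among marked promoters were lower than those among all peaks for 17 of 17 values. This was largely fixed in advance, since marked promoters are ranked by their highest peak. Their median fold was 27.1 against 20.3 over all peaks in Scid.adh.2C2, and 21.7 against 15.4 in the B progenitor line. With −log10 q in place of fold, 0 of 17 percentiles stayed the same, 8 were lower and 9 were higher.

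No paired analysis was possible because each deposited list combines the replicates of its line. No replicate was left out for the same reason. Depth and replicate spread are unknown, and the part of the Prkdc allele in these results was not tested. With lists of equal length, Dntt was the one member lost.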
